A study of Mus musculus with 8 samples.

Results

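Tspan8pos MHCIIlo medullary thymic epithelial cells (mTECs) are sorted mouse thymus cells with Tspan8 and little MHC class II at the surface, and their 2 RNA-seq libraries were compared with the 6 libraries of the other 3 mTEC subsets. A gene was taken when its normalized count, the count divided by the DESeq2 size factor of the library, was higher in both Tspan8pos MHCIIlo libraries than in all 6 others, or lower in both than in all 6. Of the 25466 genes in the table, 2296 lay above and 2124 below all 6. Among the 17006 genes with enough counts to be tested, 2071 (12.2%) lay above and 1941 (11.4%) below. The position of the libraries chose these genes and is given as a description. Each gene was also tested against each subset with edgeR over all tested genes, and it was called only where all 3 differences had the same sign, the Benjamini-Hochberg adjusted p of the weakest was under 0.01 and the smallest log2 fold change was at least 1 in size. The 183 genes called higher (1.08% of those tested) and the 93 called lower (0.547%) all met the non-overlap rule as well. The genes called higher held 38 of 57 tested genes of the Tuft cell lists. The lists were chosen with earlier results of these data known, and some Tuft members were taken from a plot of these same samples. That share is therefore not independent evidence. The genes called lower included 9 of 18 tested MHC class II genes and Aire, while 74 of the 93 belonged to no list.

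RNA was taken from the thymus of wild-type (wt) BL6N6 mice of 4 to 6 weeks. Live CD45neg Epcampos CDR1neg single cells were sorted into Tspan8pos MHCIIlo, Tspan8pos MHCIIhi, Tspan8neg MHCIIlo and Tspan8neg MHCIIhi mTECs, with 2 biological replicates of each subset. All 4 subsets share genotype, tissue and gate, the labels name no treatment, and they give neither sex nor the number of mice pooled per library. With 2 libraries a subset, all p-values measure the spread between these samples only. The comparison asks which genes set the Tspan8pos MHCIIlo subset apart, in which the study looked for late mTECs.

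mTECs transcribe a large part of the genome, tissue-restricted antigens included, and present the products to developing T cells so that self-reactive clones are removed or diverted. The nuclear factor Aire drives much of this in mature MHCIIhi cells. After the Aire stage some mTECs lose MHC class II and take on features of peripheral epithelia. Post-Aire cells resemble the cornified layers of skin, and Tuft-mTECs resemble the chemosensory cells of gut and airway, which use the taste transduction cascade and release interleukin 25, acetylcholine and leukotrienes.

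The library totals ranged from 1941518 to 7783841 counts, and both extremes were replicates 1 and 2 of Tspan8pos MHCIIlo, which therefore differed 4.01-fold in depth. The floor of 3 counts was 1.55 CPM in the smallest library and 0.385 CPM in the largest. The 2 libraries had a chi-square per gene of 3.34 against 3.43 to 9.34 in the other subsets. This value cannot tell separate biological samples from separate amplifications of 1 sample. All libraries were kept as separate replicates because the labels name them biological replicates. The sorting markers followed the labels. Tspan8, which was used for sorting, had 1558 and 1613 normalized counts in Tspan8pos MHCIIlo and 1818 and 1587 in Tspan8pos MHCIIhi, against 16.3 to 64.5 in the Tspan8neg libraries. Epcam was present in all 8, from 1620 to 4846. Markers of other cells differed between subsets. The 14 thymocyte markers, of which 13 were tested, summed to 799 and 1439 in Tspan8pos MHCIIlo, 3005 and 8314 in Tspan8neg MHCIIlo and 552 to 1362 in the MHCIIhi libraries. None was called over all 3 subsets by edgeR (0 called, 0 at an unadjusted p under 0.05, 0 by DESeq2), but 6 were lower than in Tspan8neg MHCIIlo and 1 was higher than in Tspan8neg MHCIIhi. The 10 B and plasma cell markers summed to 1072 and 1431, against 5715 and 9617 in Tspan8neg MHCIIlo and 923 to 1642 in the MHCIIhi libraries, and 5 were lower and 2 higher than in Tspan8neg MHCIIlo. The 15 myeloid markers, of which 14 were tested, summed to 1240 and 1274, against 342 and 751 in Tspan8neg MHCIIlo and 2465 to 2935 in the MHCIIhi libraries. Of the 14, 8 were lower and 1 higher than in Tspan8neg MHCIIhi, and 1 was lower and 3 were higher than in Tspan8neg MHCIIlo. The 7 erythroid markers with counts, of which 6 were tested, summed to 256 and 224, against 157 to 456. Over all tested genes, 9.34% were lower and 12.1% higher than in Tspan8neg MHCIIlo, and 14.6% lower and 14.7% higher than in Tspan8neg MHCIIhi. The 1 thymocyte and 1 myeloid marker higher than in Tspan8neg MHCIIhi are within that share. In sorted bulk samples, fewer cells of a type and less RNA per cell cannot be told apart.

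The promoters of 4 genes called higher and of 1 called lower are shown as examples, with matches to an Ets, a Kruppel-like and an octamer motif marked. Those of other called genes such as Dclk1, Pou2f3, H2-Ab1 and Ciita are not shown. The 5 examples therefore do not tell how common a match is among called genes. Each sequence is the RefSeq promoter on GRCm38.p6, from 250 bases before to 50 bases after the start site, written 5′ to 3′ on the strand of the gene, and capitals mark motif matches on either strand. Trpm5 lies at chr7:143094593-143094892 (minus strand), Avil at chr10:127000459-127000758 (plus), Sh2d6 at chr6:72519987-72520286 (minus), Ano7 at chr1:93373646-93373945 (plus) and H2-DMb2 at chr17:34144999-34145298 (plus). The RefSeq starts of Sh2d6 and H2-DMb2 lie inside the longer GENCODE genes.
Trpm5: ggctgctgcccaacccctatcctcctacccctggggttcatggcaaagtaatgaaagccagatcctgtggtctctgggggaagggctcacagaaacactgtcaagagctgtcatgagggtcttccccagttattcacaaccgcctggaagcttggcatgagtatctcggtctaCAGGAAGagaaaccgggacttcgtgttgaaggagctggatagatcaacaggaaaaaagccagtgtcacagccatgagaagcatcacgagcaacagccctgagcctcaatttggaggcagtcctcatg
Avil: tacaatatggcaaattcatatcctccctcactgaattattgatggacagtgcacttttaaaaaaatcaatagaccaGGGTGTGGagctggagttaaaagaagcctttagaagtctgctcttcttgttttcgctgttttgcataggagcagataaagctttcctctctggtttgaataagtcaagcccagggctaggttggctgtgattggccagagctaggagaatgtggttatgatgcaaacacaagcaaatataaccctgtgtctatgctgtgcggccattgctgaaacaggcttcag
Sh2d6: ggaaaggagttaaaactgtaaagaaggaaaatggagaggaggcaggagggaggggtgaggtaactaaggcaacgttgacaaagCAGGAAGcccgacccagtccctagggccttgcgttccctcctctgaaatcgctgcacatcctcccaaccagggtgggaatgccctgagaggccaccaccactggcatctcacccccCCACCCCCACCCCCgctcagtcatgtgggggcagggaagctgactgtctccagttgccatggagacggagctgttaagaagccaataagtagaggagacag
Ano7: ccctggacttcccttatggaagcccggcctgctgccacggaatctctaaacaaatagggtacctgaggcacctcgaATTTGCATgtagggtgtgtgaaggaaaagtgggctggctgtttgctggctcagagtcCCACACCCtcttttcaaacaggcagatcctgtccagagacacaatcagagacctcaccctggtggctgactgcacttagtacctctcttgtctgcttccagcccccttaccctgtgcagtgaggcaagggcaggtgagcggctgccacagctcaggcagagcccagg
H2-DMb2: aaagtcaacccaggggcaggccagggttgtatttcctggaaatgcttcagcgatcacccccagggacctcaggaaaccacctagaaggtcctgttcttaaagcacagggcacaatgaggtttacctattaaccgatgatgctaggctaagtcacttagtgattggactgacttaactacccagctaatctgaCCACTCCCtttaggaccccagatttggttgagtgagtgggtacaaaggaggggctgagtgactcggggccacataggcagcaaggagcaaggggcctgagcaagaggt
The capitals are CAGGAAG in Trpm5 (first base at -77 from the start site) and in Sh2d6 (-167), and GGGNGTGG in Avil (-174), in Ano7 (-117, other strand), in H2-DMb2 (-58, other strand) and at overlapping places in Sh2d6 (-51 and -45, other strand). Ano7 also holds the octamer ATGCAAAT on the other strand (-174). CAGGAAG occurred in 12.5% of the 12643 promoters of tested genes, GGGNGTGG in 22.9% and ATGCAAAT in 1.52%. ACCGGAAG (4.05%), AGGAAGT (9.01%), which overlaps CAGGAAG, and TGANTCA (5.96%) were searched too and are not in these 5 windows. A match describes the letters of the window and nothing more. Only 75.4% of the genes called higher and 64.5% of those called lower had a promoter in the table, under the 80% needed, so a comparison of motif shares between them is void.

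The genes that carry a taste signal inside Tuft cells were mostly at their highest in Tspan8pos MHCIIlo. Of 13 tested genes of this cascade, 10 lay above all 6 other libraries and 7 were called higher. Trpm5, the cation channel at the end of the cascade, had 9177 and 9283 normalized counts in Tspan8pos MHCIIlo, 1210 and 1515 in Tspan8pos MHCIIhi, 1524 and 2092 in Tspan8neg MHCIIlo and 198 and 213 in Tspan8neg MHCIIhi. Both Tspan8pos MHCIIlo libraries were thus the highest by a wide margin, and Tspan8neg MHCIIhi was the lowest. The log2 fold changes against these 3 subsets, always given in the order Tspan8pos MHCIIhi, Tspan8neg MHCIIlo, Tspan8neg MHCIIhi, were 2.78, 2.35 and 5.57 (SE 0.18, 0.17 and 0.2, edgeR with Benjamini-Hochberg adjustment, adjusted p = 3.49e-05). Plcg2, a phospholipase C that Tuft cells share with immune cells, had 1688 and 1563 normalized counts against 262 to 445 in the others, with log2 fold changes of 2.04, 2.04 and 2.66. Plcb2, the taste phospholipase C, had 3749 and 3800 against 633 and 803 in Tspan8pos MHCIIhi, 1399 and 2050 in Tspan8neg MHCIIlo and 116 and 156 in Tspan8neg MHCIIhi. Its groups did not overlap, but Tspan8neg MHCIIlo came close and its call (smallest log2 fold change 1.13, edgeR adjusted p = 0.0087) was lost whichever library was left out other than replicate 2 of Tspan8neg MHCIIlo.

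Upstream of these, the sweet and umami receptor subunit Tas1r3 had 222 and 214 normalized counts against 21.7 to 77 in the 6 others, and the G protein subunit Gng13 had 555 and 378 against 30.3 to 177. Rgs13, a regulator that ends G protein signals, had 237 and 298 against 6.85 to 57.8. All 3 were called, with smallest log2 fold changes of 1.7, 1.58 and 2.53 and edgeR adjusted p-values of 0.00198, 0.00334 and 0.00082. Itpr2, a calcium release channel of the endoplasmic reticulum, was the seventh gene called, at 1733 and 1780 against 237 to 850.3. The transducin-type subunits Gnat3 and Gnb3 were called higher than in Tspan8pos MHCIIhi and in Tspan8neg MHCIIhi but not than in Tspan8neg MHCIIlo. Gnb3 had 1639 and 1569 normalized counts against 1058 and 1413 in Tspan8neg MHCIIlo, a log2 fold change of 0.37 there, and Gnat3 had 574 and 600.2 against 429.6 and 550.5, a log2 fold change of 0.26. Rgs21 had 41.9 and 50.5 in Tspan8pos MHCIIlo and 67.6 and 94.7 in Tspan8neg MHCIIlo, a log2 fold change of -0.79.

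The median log2 fold changes of the taste list were 2.03, 1.18 and 3.64, beside -0.00674, -0.0288 and 0.00285 over all tested genes. Counted against 1 subset at a time, with the same thresholds, 10 of the 13 were higher than in Tspan8pos MHCIIhi, 7 than in Tspan8neg MHCIIlo and 12 than in Tspan8neg MHCIIhi, where 446 (2.62%), 2052 (12.1%) and 2498 (14.7%) of all tested genes were. The calls of this list numbered 4 without replicate 1 and 2 without replicate 2 of Tspan8pos MHCIIlo, and 3 without replicate 1 of Tspan8pos MHCIIhi. Trpm5 and Plcg2 were called whichever of the 8 libraries was left out, with smallest log2 fold changes of 2.12 to 2.6 and 1.85 to 2.08. Trpm5 is overlapped by Tssc4, Gng13 by Chtf18 and Tas1r3 by Dvl1 on the opposite strand, and the sources differ on whether the libraries kept the strand, so their counts are uncertain.

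**Figure D1:**
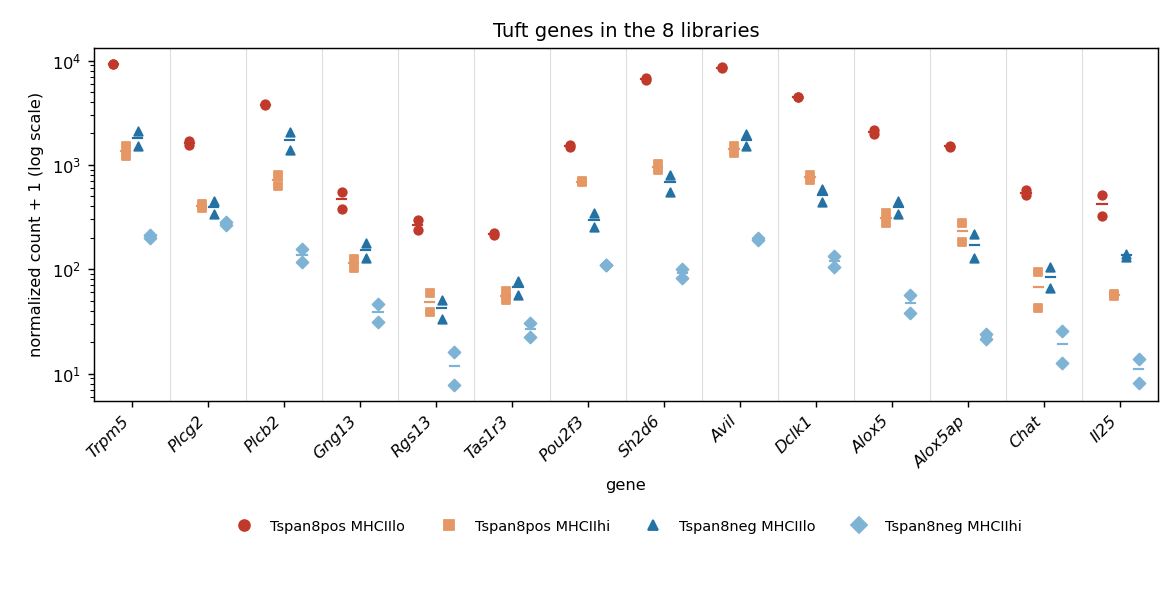
Normalized counts plus 1 on a log axis for 14 Tuft genes picked from those called higher. Each library has a point, and a bar marks the mean of the 2 libraries of each subset. Since only called genes were picked, both Tspan8pos MHCIIlo points lie above those of all other subsets in every gene shown. For Trpm5 they are 9177 and 9283 against at most 2092 elsewhere. Listed Tuft genes that were not called, such as Rgs21, Gnat3, Gnb3 and Ptgds, are not shown.

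The other Tuft genes, which define the cell and its output, were higher as well. Of 45 tested genes, 40 lay above all 6 other libraries and 32 were called higher, and 0 were called lower by edgeR (0 at an unadjusted p under 0.05, 0 by DESeq2). Some of the listed genes were taken from those labelled in a plot of these same samples, among them Ano7, Chdh, Adgrg6, Col16a1, Pik3r5, Bmx and Sh2d7, so their direction is not independent evidence. The medians of the list were 2.33, 2.28 and 3.64. Against single subsets, 35, 39 and 37 of the 45 were higher and 1, 0 and 1 lower. Without replicate 1 of Tspan8pos MHCIIlo 19 were called, and the highest count with a library left out was 33. Over both Tuft lists together, 38 of 57 tested genes were called and 20 of these were called whichever library was left out. The summed normalized counts of the 47 listed genes, tested or not, were 84160 and 79090 in Tspan8pos MHCIIlo, 23430 and 24820 in Tspan8pos MHCIIhi, 18890 and 23020 in Tspan8neg MHCIIlo, and 12070 and 12850 in Tspan8neg MHCIIhi.

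Among the transcription factors, Pou2f3, the master regulator of Tuft cells, had 1536 and 1488 normalized counts against 699 and 679.8 in Tspan8pos MHCIIhi, 254 and 342 in Tspan8neg MHCIIlo and 109.6 and 108 in Tspan8neg MHCIIhi. The subsets fell in separate steps, with Tspan8pos MHCIIhi the nearest, and the log2 fold changes were 1.15, 2.33 and 3.87 (SE 0.15, 0.16 and 0.17, edgeR adjusted p = 0.00121). Gfi1b, a zinc finger repressor of Tuft and blood cells, had 219 and 171 against 15 to 78, and the homeobox gene Hmx3 had 192 and 146 against 8.77 to 42.1. Both were called, with edgeR adjusted p-values of 0.00987 and 0.00365. These 3 calls were the less stable ones, since Pou2f3 lost its call whenever 1 of the 4 Tspan8pos libraries was left out, Gfi1b also whenever 1 of the Tspan8neg MHCIIhi libraries was, and Hmx3 with any of these 6 left out except replicate 2 of Tspan8pos MHCIIhi. Spib (3961 and 3387 against 1295 to 2373) and Runx1 did not reach the threshold, with edgeR adjusted p-values of 0.028 and 0.0448.

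Avil, Dclk1 and Espn, which belong to the cytoskeleton of Tuft cells, were called. Avil, an actin bundling protein of the microvillar tip, had 8400 and 8602 normalized counts against 1299 and 1518 in Tspan8pos MHCIIhi, 1515 and 1966 in Tspan8neg MHCIIlo and 189 and 197 in Tspan8neg MHCIIhi. Dclk1, a microtubule-associated kinase and the usual Tuft marker, had 4508 and 4501 against 722 and 805 in Tspan8pos MHCIIhi, 439.6 and 586 in Tspan8neg MHCIIlo and 104 and 134 in Tspan8neg MHCIIhi. In both genes the 2 Tspan8pos MHCIIlo libraries were nearly equal and stood above every other library. The log2 fold changes were 2.61, 2.28 and 5.54 for Avil and 2.58, 3.13 and 5.31 for Dclk1 (SE 0.17, 0.18 and 0.2 for Dclk1, edgeR adjusted p = 1.89e-05 for each). Espn, another actin bundler, had 1309 and 1306 against 165 to 549.5 and was not called without either Tspan8pos MHCIIlo library. Avil is overlapped by Tsfm on the opposite strand and Dclk1 by several predicted genes.

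Alox5, Alox5ap, Ltc4s and Ptgs1, which act in the making of lipid mediators, were called. Alox5, which starts leukotriene synthesis from arachidonic acid, had 2149 and 1964 normalized counts against 274 and 347 in Tspan8pos MHCIIhi, 339 and 451 in Tspan8neg MHCIIlo and 37.2 and 56 in Tspan8neg MHCIIhi. Its membrane partner Alox5ap had 1531 and 1469 against 20.6 to 277, and Ltc4s, which makes leukotriene C4, had 468 and 368 against 23.5 to 128. Each of these steps was lowest in Tspan8neg MHCIIhi. Ptgs1, the constitutive cyclooxygenase, had 1363 and 1289 against 59 to 237. The smallest log2 fold changes were 2.37 for Alox5, 2.73 for Alox5ap, 1.93 for Ltc4s and 2.61 for Ptgs1 (edgeR adjusted p-values 6.69e-05, 0.000104, 0.000706 and 1.89e-05). Only Ltc4s lost its call with a library left out, replicate 1 of either Tspan8pos subset. The prostaglandin D synthases Hpgds and Ptgds were not called. Hpgds had log2 fold changes of 0.5, 1.86 and 1.88, and Ptgds had 54.2 and 43.3 normalized counts in Tspan8pos MHCIIlo, below the 276 and 269.7 of Tspan8pos MHCIIhi and above the 12.5 and 16.6 of Tspan8neg MHCIIlo.

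The secreted signals of Tuft cells were also higher. Il25, the alarmin that activates type 2 lymphoid cells, had 513 and 324 normalized counts against 54.6 and 56.9 in Tspan8pos MHCIIhi, 130.3 and 140.5 in Tspan8neg MHCIIlo and 12.7 and 7.22 in Tspan8neg MHCIIhi, with log2 fold changes of 2.89, 1.59 and 5.5 (edgeR adjusted p = 0.00252). Chat, which makes acetylcholine, had 510.2 and 575 against 11.7 to 103, with log2 fold changes of 3.05, 2.68 and 4.89 (edgeR adjusted p = 0.000976). Il17rb, the receptor subunit for interleukin 25, had 1053 and 1103 against 57.2 to 265 and was called whichever library was left out. The call of Il25 was lost without replicate 1 of Tspan8pos MHCIIlo or either Tspan8pos MHCIIhi library, and that of Chat without either Tspan8pos MHCIIlo library. Il17rb and Chdh, a choline dehydrogenase with 2339 and 2024 against 184 to 547, are neighbours within chr14:29996135-30040527 of GRCm38, 127 bases apart, and both were called. Chat overlaps Slc18a3 on the same strand, so that reads could have been split.

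Several called genes encode signalling proteins. Sh2d6, an adaptor with an SH2 domain (on chromosome 6 from 72513641 to 72521707 of GRCm38), had 6867 and 6566 normalized counts against 883 and 1016 in Tspan8pos MHCIIhi, 552 and 804 in Tspan8neg MHCIIlo and 82.2 and 99.9 in Tspan8neg MHCIIhi. Its log2 fold changes were 2.84, 3.3 and 6.27 (SE 0.19, 0.19 and 0.22, edgeR adjusted p = 1.89e-05), a 77.3-fold difference from Tspan8neg MHCIIhi. Sh2d7, a relative, had 2245 and 1981 against 19.6 to 309. The lower Tspan8pos MHCIIlo library lay 6.46- and 6.41-fold above the next library in these 2 genes. The Tec family kinase Bmx had 1928 and 1804 against 35.5 to 351, the exchange factor Vav1 had 2167 and 2145 against 50.9 to 655, and the phosphoinositide 5-phosphatase Inpp5d had 2034 and 1777 against 176 to 449. Pik3r5, a regulatory subunit of phosphoinositide 3-kinase gamma, had 3525 and 3184 against 189.8 to 984. All of these were called whichever library was left out.

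Nrgn, a calmodulin-binding protein of neurons, had 729.6 and 594 normalized counts against 19.3 to 92.6, with log2 fold changes of 3.34, 3.39 and 5.15 (SE 0.35, 0.36 and 0.4, edgeR adjusted p = 0.000295), and it lost its call without replicate 1 of Tspan8pos MHCIIhi. Lrmp, a membrane protein of the endoplasmic reticulum in lymphocytes, had 4861 and 4697 against 83.2 to 1689 and lost its call without either Tspan8pos MHCIIlo library. Ano7, an anoctamin, had 2263 and 2257 against 66.2 to 526. It separated from every other subset with an adjusted p of 1.89e-05 in edgeR. Cd24a, also listed, passed the adjusted p but not the limit on the fold change, with log2 fold changes of 0.79, 1.2 and 2.54 (edgeR adjusted p = 0.00628). Lrmp is overlapped by Casc1 and Sh2d7 by Cib2 on the opposite strand.

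**Figure D2:**
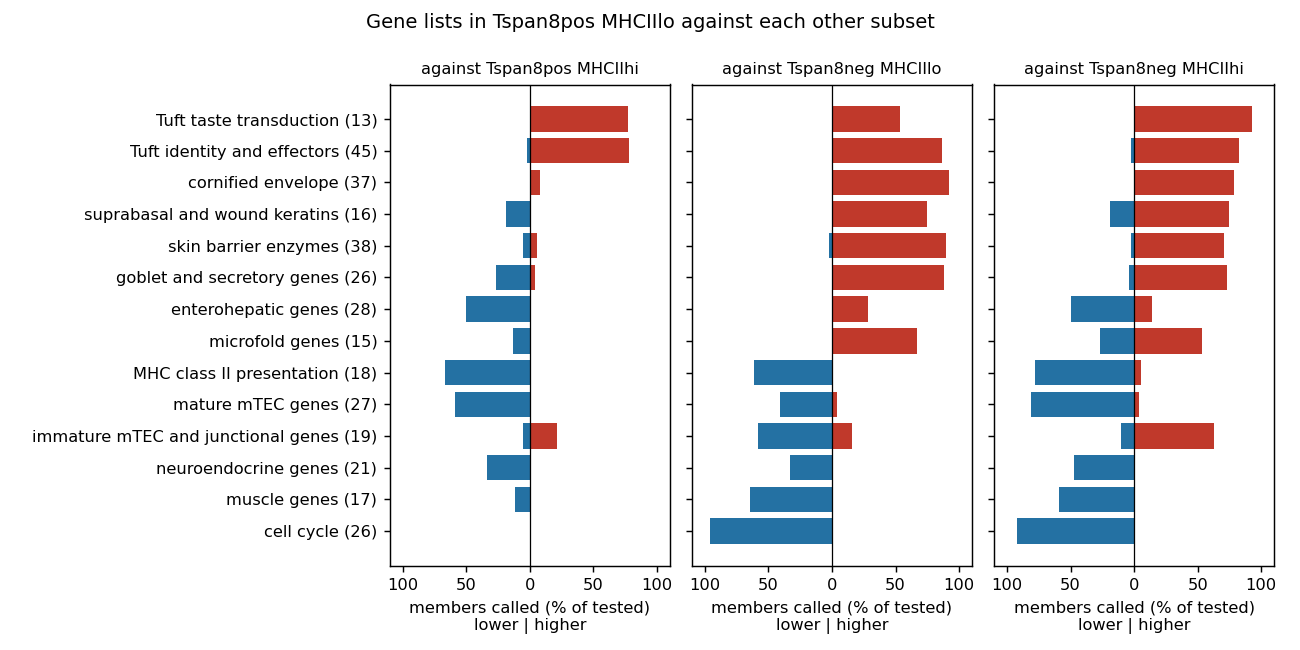
Percentage of the tested members of 14 gene lists called higher (to the right) or lower (to the left) in Tspan8pos MHCIIlo than in each of the 3 other subsets, with a panel for each subset. The 2 Tuft lists are higher in all 3 panels, MHC class II is lower in all 3, and the cornified envelope list is higher in 34 and 29 of 37 members against the Tspan8neg subsets but in 3 against Tspan8pos MHCIIhi.

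Of the 183 genes called higher, 138 belonged to no list. Among all 183, listed or not, the 8 protein-coding genes with the highest level were Atp2a3, Trpm5, Avil, Sh2d6, Sdc4, Abhd2, Lrmp and Ahnak2. Atp2a3, a calcium pump of the endoplasmic reticulum in blood and secretory cells, had 9337 and 8852 normalized counts against 2615 and 3127 in Tspan8pos MHCIIhi, 2749 and 3726 in Tspan8neg MHCIIlo and 1010 and 935 in Tspan8neg MHCIIhi, with log2 fold changes of 1.68, 1.49 and 3.31 (SE 0.16, 0.16 and 0.17, edgeR adjusted p = 0.000327). Sdc4, a heparan sulfate proteoglycan of the cell surface, had 6525 and 5735 against 2429 and 2408 in Tspan8pos MHCIIhi, 1187 and 1024 in Tspan8neg MHCIIlo and 614 and 673 in Tspan8neg MHCIIhi. Sdc4 therefore stepped down from Tspan8pos MHCIIhi to the Tspan8neg subsets, whereas Atp2a3 had the Tspan8pos MHCIIhi and Tspan8neg MHCIIlo libraries side by side. Ahnak2, a very large scaffold protein, had 4728 and 4790 against 193 to 1851. Abhd2, a lipid hydrolase, had 6305 and 5227 against 1443 to 3126, with a smallest log2 fold change of 1.03 that was 0.88 at the lowest with a library left out, and it lost its call whenever 1 of the 4 Tspan8pos libraries was left out.

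The largest smallest-of-3 changes were those of low genes. Prol1 encodes a proline-rich lacrimal gland protein and Scgb2b27 and Scgb1b27 encode secretoglobins. Prol1 had 74 and 196 normalized counts against 0 to 3.12, Scgb2b27 had 74 and 254 against 0 to 5.2, and Scgb1b27 had 78.9 and 381 against 0 to 12.5. These 3 are the only genes called higher whose Tspan8pos MHCIIlo libraries lay over 2-fold apart, and replicate 2 was the higher in each. Without replicate 2 none of them was called, nor without several of the MHCIIhi libraries, and Scgb1b27 was not called by DESeq2. The 2 secretoglobins are neighbours within chr7:34011921-34022881 of GRCm38 and members of a family of similar sequence, so the split of their reads is uncertain. A gene without a symbol in the annotation, ENSMUSG00000092137.7, had 19 and 82 counts in Tspan8pos MHCIIlo and 0 in the 6 other libraries, which is at least 17.7-, 14- and 20.3-fold higher against the floor of 3 counts per library (edgeR adjusted p = 0.00522), and it kept its call only when a Tspan8neg MHCIIlo library was the one left out.

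More evenly measured genes followed. Srpx2, a secreted protein with sushi repeats (on chromosome X from 133908426 to 133932446 of GRCm38), had 446 and 394 normalized counts against 4.89 to 67.7, with log2 fold changes of 3.22, 2.89 and 5.88 (SE 0.24, 0.24 and 0.3, edgeR adjusted p = 6.06e-05) and a call whichever library was left out. Chrdl1, a secreted inhibitor of bone morphogenetic proteins, had 108 and 99.8 against 2.94 to 18.4, the potassium channel Kcnd3 had 153 and 144 against 7.82 to 22, and the secreted synaptic organizer Cbln4 had 170.1 and 116 against 4.81 to 18.8. The log2 fold changes of these 3 lay between 2.96 and 4.85, and each was called in 5 of the 8 fits with a library left out. The lectin receptor Clec4a1 had 96.1 and 63.1 against 0.979 to 11.6 and was called in 2 of those 8 fits and not after all libraries were thinned to the same total. Ccn3, a matricellular protein of the junctional mTEC list, had 323 and 357 against 61.8 to 127, Dnah5, an axonemal dynein and the 1 called gene among 20 tested ciliated genes, had 419 and 513 against 50.1 to 132, and Tek, the angiopoietin receptor, had 205 and 209 against 26.4 to 92.6. Ccn3 was called in 6, Dnah5 in 6 and Tek in 1 of the 8.

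Unlisted genes called higher included further groups, chosen here after their values were seen and named for what their products do. Of signalling proteins of blood cells, Pik3cg, the catalytic subunit that pairs with Pik3r5, had 1496 and 1524 normalized counts against 23.5 to 277, the phosphatase Ptpn18 had 2620 and 2665 against 101 to 581, and the inhibitory receptor Cd300lf had 382 and 443 against 22.5 to 94.7. All of them were lowest in Tspan8neg MHCIIhi. Fyb, an adaptor of T cells and platelets, had 1484 and 1498 against 120.4 to 718, and Skap2, an adaptor that binds it, had 929 and 925 against 137 to 302. Of these, Cd300lf lost its call without replicate 2 of Tspan8pos MHCIIlo and Fyb whenever 1 of the 4 Tspan8pos libraries was left out. Ptprc, the pan-leukocyte gene CD45 by which blood cells were gated out, was not called and had 244 and 321 normalized counts in Tspan8pos MHCIIlo, 77.9 and 113 in Tspan8pos MHCIIhi, 398 and 904 in Tspan8neg MHCIIlo and 55.8 and 107 in Tspan8neg MHCIIhi. The myeloid marker Fcer1g was at 0 and 3.61 in the Tspan8pos MHCIIlo libraries, but another, Lyz2, was at 320 and 281. Of 14 tested myeloid markers, 3 were higher and 1 lower than in Tspan8neg MHCIIlo. Against Tspan8neg MHCIIhi 1 was higher and 8 were lower, and against Tspan8pos MHCIIhi 0 and 2. The part of blood cells in the values of these genes was not tested.

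A second such group had receptors and their effectors. Adra2a, the alpha 2A adrenergic receptor, had 352 and 247 normalized counts against 20.6 to 74.3, the adenylyl cyclase Adcy5 had 584 and 556 against 130 to 194, and Arrb1, a beta-arrestin, had 510.2 and 577 against 188 to 214. The 3 were called whichever library was left out. Rgs2, which lies next to Rgs13 among the called genes of chromosome 1, had 1632 and 1911 against 177 to 854 and was called in 5 of the 8. Agt, the angiotensin precursor, had 786 and 681 against 43 to 153. Adcy5, Arrb1 and the spectrin gene Sptb (747 and 657 against 138 to 153) had similar levels in the 3 other subsets, with log2 fold changes of 2.32, 2.23 and 2.33 for Sptb.

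Others bind cells to each other. The adhesion molecules L1cam (1691 and 1739 normalized counts against 158 to 501) and Kirrel3 (786 and 749 against 32.3 to 207) and Mag, a glycoprotein of myelin (362 and 278 against 39.7 to 74.3), were called whichever library was left out. L1cam overlaps the called gene Arhgap4 on the same strand, so that reads could have been split. Of metabolic enzymes, the mitochondrial aldehyde dehydrogenase Aldh2 had 3867 and 3105 against 146 to 1013 and the carbonic anhydrase Car7 had 508 and 420.4 against 27.4 to 117, and both were called under every left-out library.

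Ehf, an Ets factor of differentiated epithelia and the marker of late mTECs that was followed here, was called higher (on chromosome 2 from 103263433 to 103303278 of GRCm38). It had 3167 and 2948 normalized counts in Tspan8pos MHCIIlo, 1553 and 1348 in Tspan8pos MHCIIhi, 888 and 789 in Tspan8neg MHCIIlo and 483 and 535 in Tspan8neg MHCIIhi, so that the 4 subsets formed separate steps. The log2 fold changes were 1.09, 1.86 and 2.66 (SE 0.13, 0.14 and 0.14, edgeR adjusted p = 0.000862). The smallest of them lay between 0.99 and 1.18 with a library left out, and Ehf was not called without either Tspan8pos MHCIIlo library or replicate 2 of Tspan8pos MHCIIhi. It was the 1 called gene of 36 tested epithelial transcription factors, of which 11 lay above all 6 other libraries and 8 passed an unadjusted p under 0.05. Elf3 had 4920 and 5703 against 772 to 4102 (edgeR adjusted p = 0.157), Klf4 had 5497 and 6074 against 1070 to 4484, and Sox9 had 1464 and 1344 against 493 to 1058 (edgeR adjusted p = 0.0652). Against single subsets, 2, 20 and 22 of the 36 were higher, and the medians were 0.05, 1.19 and 1.55.

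Ivl did not separate Tspan8pos MHCIIlo from all others. This gene of the cornified envelope, the cross-linked protein layer of dead skin cells, had 1642 and 1216 normalized counts in Tspan8pos MHCIIlo and 1284 and 950.4 in Tspan8pos MHCIIhi, which overlap, against 25.9 to 43 in the Tspan8neg libraries. Its log2 fold changes were 0.36, 5.34 and 5.49 (edgeR adjusted p = 0.748 over the 3). In the cornified envelope list as a whole, 34 and 29 of 37 tested genes were higher than in Tspan8neg MHCIIlo and Tspan8neg MHCIIhi but 3 were higher than in Tspan8pos MHCIIhi, and the medians were 0.36, 4.92 and 3.7. The summed normalized counts of the 39 members with counts, tested or not, were 61800 and 61400 in Tspan8pos MHCIIlo and 64370 and 58770 in Tspan8pos MHCIIhi. Cdsn, the corneodesmosome protein (1610 and 1502 against 635 and 682 in Tspan8pos MHCIIhi and 18.8 to 58.7 in the Tspan8neg libraries), and Kprp (528 and 572 against 266 and 228 in Tspan8pos MHCIIhi and 6.26 to 9.63 in the Tspan8neg libraries) were the 2 called members, and Klk7, a protease that cleaves corneodesmosomes (2867 and 2365 against 1239 and 1042 in Tspan8pos MHCIIhi and 27.6 to 156 in the Tspan8neg libraries), was the 1 called member of 38 skin barrier enzymes. These 3 differed from Tspan8pos MHCIIhi by log2 fold changes of 1.26, 1.18 and 1.21, with edgeR adjusted p-values of 0.001, 0.00121 and 0.00121, and lost their calls whenever 1 of the 4 Tspan8pos libraries was left out. Flg, filaggrin, had 2056 and 2688 against 1335 and 1211 in Tspan8pos MHCIIhi and passed the adjusted p (edgeR, 0.00592) but not the limit on the fold change, at 0.92. Members of the Sprr2 and Lce families are similar in sequence, and the split of their reads is uncertain.

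The keratin and junction lists likewise parted Tspan8pos MHCIIlo from the Tspan8neg subsets more often than from Tspan8pos MHCIIhi, a difference between counts that was not tested. Of 16 suprabasal and wound keratins, 12 were higher than in each Tspan8neg subset, 3 were lower than in each MHCIIhi subset, and 0 were called over all 3 (edgeR, 4 higher and 1 lower at an unadjusted p under 0.05, 0 by DESeq2). Krt9, Krt13 and Krt24 were the lower ones, by log2 fold changes of -4.53, -2.57 and -3.4 against Tspan8pos MHCIIhi and -5.55, -3.62 and -4.38 against Tspan8neg MHCIIhi. Krt10, the main suprabasal keratin, had 7303 and 7192 normalized counts against 8788 and 7617 in Tspan8pos MHCIIhi, and the wound keratin Krt17 had 21650 and 20300 against 16900 and 17550. Of 38 skin barrier enzymes, 2, 34 and 27 were higher and 2, 1 and 1 lower, with medians of 0.08, 4.12 and 2.02. Simple keratins (5 tested) had 0, 4 and 4 higher, with Krt8 at 18980 and 16270 against 7480 to 15030. Desmosome genes (14) had 0, 7 and 8 higher and 1, 1 and 1 lower, with Dsp, the desmoplakin gene, at 15630 and 15270 against 14360 and 11360 in Tspan8pos MHCIIhi and 5115 and 3224 in Tspan8neg MHCIIlo. Tight junction genes (20) had 0, 15 and 8 higher and 2, 0 and 2 lower, with Cldn4 at 11630 and 7900 against 10240 and 8447 in Tspan8pos MHCIIhi. None of these 3 lists had a gene called over all 3 subsets by edgeR or DESeq2, and at an unadjusted p under 0.05 there were 1, 0 and 1 higher and 0, 1 and 0 lower. The 15 basal layer genes had medians of -0.1, -0.83 and 0.26 and 0 called (edgeR, 1 lower at an unadjusted p under 0.05, 0 by DESeq2), with Krt5 at 6423 and 5923 against 1136 to 9088.

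**Figure D3:**
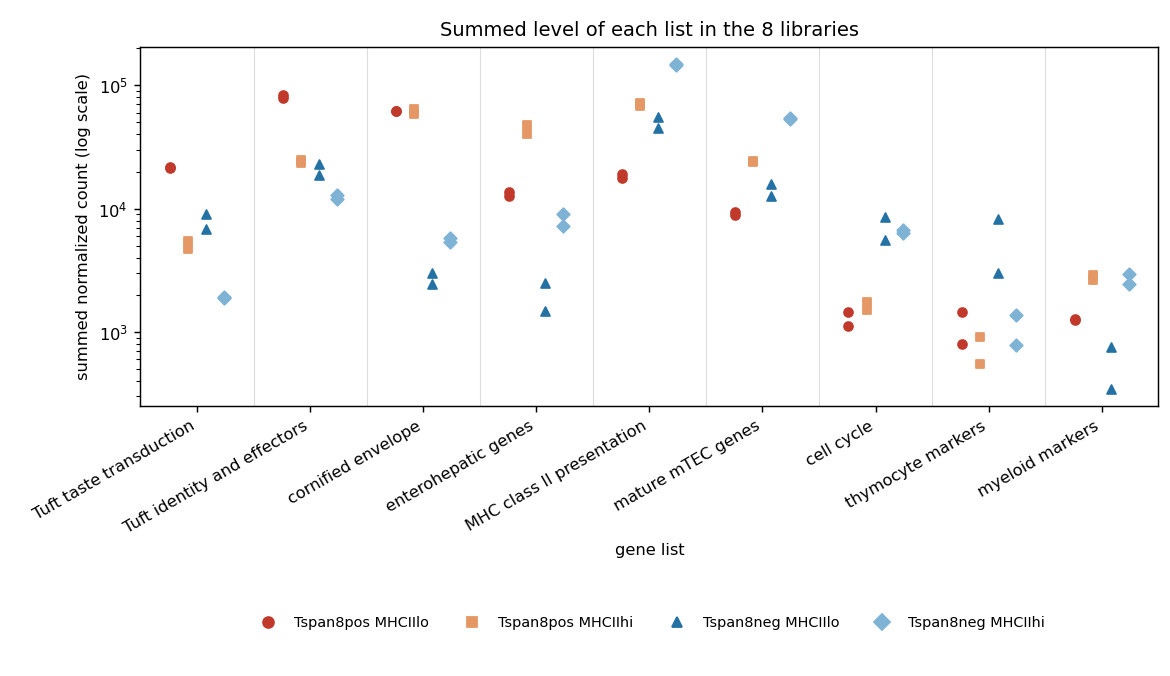
Summed normalized counts of the members of 9 gene lists, tested or not, in each of the 8 libraries on a log axis, with a point for each library. The Tuft identity sum is 84160 and 79090 in Tspan8pos MHCIIlo and at most 24820 elsewhere, while the cornified envelope sum lies near that of Tspan8pos MHCIIhi and the MHC class II sum is the lowest of the 4 subsets.

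MHC class II genes made up the list with the most genes called lower. Of 18 tested genes of class II presentation, 12 lay below all 6 other libraries and 9 were called lower, with medians of -1.73, -1.41 and -2.62. Their summed normalized counts were 19060 and 17600 in Tspan8pos MHCIIlo, 68640 and 72560 in Tspan8pos MHCIIhi, 55360 and 45290 in Tspan8neg MHCIIlo, and 147400 and 150200 in Tspan8neg MHCIIhi. The protein was used for sorting, so low class II is a check of the gate against the MHCIIhi subsets. Tspan8neg MHCIIlo passed the same MHCIIlo gate, and 11 of the 18 genes were lower than there. In the same comparison 5 of 10 markers of B and plasma cells, of which B cells carry class II, were lower and 2 were higher. Ighm was among the lower, with a log2 fold change of -3.08, while Ms4a1 (-1.47) was not called. Of 14 myeloid markers, 1 was lower and 3 were higher than in Tspan8neg MHCIIlo. Against Tspan8neg MHCIIhi 8 of these 14 were lower and 1 was higher. The part of these cells in the class II difference was not tested. Ciita, the transactivator that switches class II genes on (on chromosome 16 from 10480059 to 10528418 of GRCm38), had 86.3 and 81.8 normalized counts against 450.2 and 537 in Tspan8pos MHCIIhi, 575 and 579 in Tspan8neg MHCIIlo and 1632 and 1684 in Tspan8neg MHCIIhi. The lowest other library was 5.22-fold above the higher Tspan8pos MHCIIlo library, and the log2 fold changes were -2.54, -2.79 and -4.23 (SE 0.16, 0.16 and 0.16, edgeR adjusted p = 1.89e-05). Against 1 subset at a time, 780 (4.59%), 1588 (9.34%) and 2490 (14.6%) of all tested genes were lower, and 12, 11 and 14 of these 18.

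Of the peptide-binding chains, H2-Ab1 had 2322 and 2154 normalized counts against 10930 and 11820 in Tspan8pos MHCIIhi, 9247 and 7504 in Tspan8neg MHCIIlo and 23470 and 23930 in Tspan8neg MHCIIhi, and H2-Aa had 1728 and 1605 against 9787 and 10100 in Tspan8pos MHCIIhi, 6134 and 5151 in Tspan8neg MHCIIlo and 21660 and 23760 in Tspan8neg MHCIIhi. Tspan8pos MHCIIlo was the lowest and Tspan8neg MHCIIhi the highest subset in both. H2-Eb1 had 2571 and 2130 against 5440 to 17450, and the rarer H2-Eb2 had 41.9 and 38.5 against 160.3 to 2187. The invariant chain Cd74, which escorts class II to the endosome, had 8854 and 8012 against 20860 to 70950. H2-DMb2, a subunit of the peptide exchange factor whose promoter is shown above, had 106 and 95 against 810.1 and 931 in Tspan8pos MHCIIhi, 835 and 632 in Tspan8neg MHCIIlo and 3001 and 3062 in Tspan8neg MHCIIhi, with log2 fold changes of -3.11, -2.89 and -4.85 (SE 0.18, 0.18 and 0.19, edgeR adjusted p = 1.89e-05). Its partner H2-DMa had 136 and 86 against 271 to 615, and H2-Oa, which restrains the exchange, had 49.3 and 51.7 against 163 to 1251. The calls of H2-DMa (lost without replicate 2 of Tspan8pos MHCIIlo or either Tspan8pos MHCIIhi library) and H2-Oa (lost without the same replicate 2) were the less stable, and the other 7 held whichever library was left out. H2-DMa and H2-DMb2, H2-Ab1 and H2-Aa, and H2-Eb1 and H2-Eb2 are 3 pairs of called neighbours between positions 34119541 and 34341412 of chromosome 17. H2-DMb1 and H2-Ob missed the threshold at edgeR adjusted p-values of 0.0137 and 0.0464. H2-Eb1 and H2-DMa are overlapped by other genes on the opposite strand.

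Class I presentation did not share this. Of 18 tested genes, 0 were called in either direction by edgeR (1 lower at an unadjusted p under 0.05, 0 by DESeq2), and the medians were -0.04, 0.21 and 0.01. H2-K1, a classical class I heavy chain, had 25430 and 24860 normalized counts against 25610 and 27260 in Tspan8pos MHCIIhi, 17330 and 14020 in Tspan8neg MHCIIlo and 20450 and 20000 in Tspan8neg MHCIIhi.

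Mature mTEC genes were the second lower group. Of 27 tested, 13 lay below all 6 other libraries and 7 were called lower, 0 higher (edgeR, 0 at an unadjusted p under 0.05, 0 by DESeq2), with medians of -1.83, -0.89 and -2.77. Without replicate 2 of Tspan8pos MHCIIlo 3 were called. Aire had 66.5 and 156 normalized counts against 1807 and 2443 in Tspan8pos MHCIIhi, 947 and 903 in Tspan8neg MHCIIlo and 12510 and 11630 in Tspan8neg MHCIIhi. The 2 Tspan8pos MHCIIlo libraries differed from each other but lay far under the rest, and the log2 fold changes were -4.09, -2.91 and -6.53 (SE 0.29, 0.28 and 0.31, edgeR adjusted p = 0.000154) with a smallest value of -3.81 to -2.57 when a library was left out. Dnmt3l overlaps Aire on the opposite strand. Cd80, a costimulatory ligand of mature cells, had 66.5 and 62 against 253 and 206 in Tspan8pos MHCIIhi, 68.9 and 30.2 in Tspan8neg MHCIIlo and 761 and 673 in Tspan8neg MHCIIhi, and overlapped Tspan8neg MHCIIlo. Fezf2, the other factor known for tissue-restricted antigens, had 609 and 807 against 1344 and 1560 in Tspan8pos MHCIIhi and 830.4 and 693 in Tspan8neg MHCIIlo, with log2 fold changes of -1, -0.09 and -1.4, and was not called.

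Chemokines and ligands by which mature mTECs meet T cells and dendritic cells were among the called genes. Ccl19, which draws cells with the receptor Ccr7 (on chromosome 4 from 42754525 to 42756577 of GRCm38), had 37 and 19.9 normalized counts against 226 and 289.9 in Tspan8pos MHCIIhi, 324 and 254 in Tspan8neg MHCIIlo and 721 and 796 in Tspan8neg MHCIIhi, with log2 fold changes of -3.38, -3.56 and -4.88 (SE 0.27, 0.27 and 0.26, edgeR adjusted p = 5.44e-05). Ccl22, a ligand of Ccr4, had 14.8 and 12 against 71.4 to 1130. Cd40, through which mTEC growth signals arrive, had 59.2 and 45.1 against 164 to 1024, Icosl had 246 and 234 against 544 to 2953, and Tnfrsf9 had 14.8 and 17.4 against 71.8 to 306. All of these had their highest level in Tspan8neg MHCIIhi. Hdc, which makes histamine, had 101 and 105 against 850.3 and 926 in Tspan8pos MHCIIhi, 321 and 358 in Tspan8neg MHCIIlo and 4615 and 4237 in Tspan8neg MHCIIhi. Ccl19 and Hdc were called whichever library was left out, Cd40, Icosl and Tnfrsf9 were not called without replicate 2 of Tspan8pos MHCIIlo, and Ccl22 lost its call without either Tspan8pos MHCIIlo library. Ccl19 and Tnfrsf9 have a gene on the opposite strand.

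**Figure D4:**
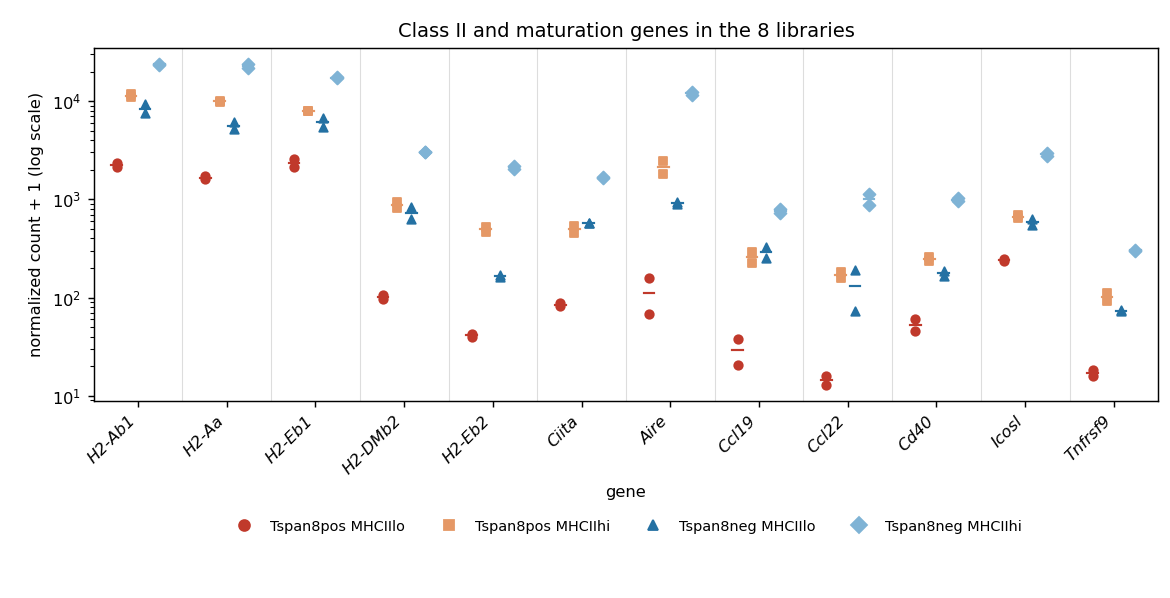
Normalized counts plus 1 on a log axis for 12 genes called lower, with a point for each library and a bar at the mean of the 2 libraries of each subset. The Tspan8pos MHCIIlo points are the lowest in every gene, such as 66.5 and 156 for Aire against at least 903 elsewhere, and Tspan8neg MHCIIhi is the highest.

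The other genes called lower belonged mostly to no list (74 of 93). Actn3, an alpha-actinin of fast muscle that lies outside the muscle list used here, had 69 and 63.1 normalized counts against 403 and 394 in Tspan8pos MHCIIhi, 599 and 611 in Tspan8neg MHCIIlo and 2210 and 2024 in Tspan8neg MHCIIhi, with log2 fold changes of -2.59, -3.21 and -4.94 (SE 0.15, 0.15 and 0.16, edgeR adjusted p = 1.89e-05). Phgdh, the first enzyme of serine synthesis, had 64.1 and 68.6 against 287 to 2071, and Ptprq, a phosphatase of the inner ear and kidney, had 111 and 122 against 561 to 1758. The 3 were called whichever library was left out. Fcer2a, the low-affinity receptor for immunoglobulin E, had 14.8 and 12 against 93.7 to 532, and the neuropeptide gene Grp had 4.93 and 1.8 against 46.5 to 149.8. Both lost their call without replicate 2 of Tspan8pos MHCIIlo, and Grp also when all libraries were thinned to the same total. Wnt10a, a Wnt ligand, had 4.93 and 15.6 against 70.6 to 206, Rgs5, a pericyte gene, had 323 and 180.4 against 918 to 1981, and both calls were lost without replicate 2 of Tspan8pos MHCIIlo or replicate 1 of Tspan8pos MHCIIhi. Ipcef1 had 0 and 19.9 against 80.2 to 337 and lost its call whenever 1 of the 4 MHCIIhi libraries was left out, and after thinning.

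Vcam1, an adhesion molecule for lymphocytes, had 335 and 272 normalized counts against 804 to 2583, and Tkt, transketolase of the pentose phosphate pathway, had 372 and 313 against 741 to 3682. Insm1, a neuroendocrine transcription factor, had 69 and 33.1 against 165 to 771, and Tbata, a gene of thymic epithelium in the cTEC list, had 187 and 284 against 473 to 2375. Vcam1 and Tkt lost their calls without either Tspan8pos MHCIIlo library, Vcam1 also without replicate 1 of Tspan8pos MHCIIhi, Insm1 without replicate 2 of Tspan8pos MHCIIlo, and Tbata was called in 1 of the 8 fits. The genes at 0 counts in both Tspan8pos MHCIIlo libraries among those called were Gm14173, at least 8.16-, 12.9- and 7.18-fold lower, and Ucma, a cartilage matrix protein, at least 7.28-, 4.96- and 22.4-fold lower, and each lost its call whenever 1 of the 4 Tspan8pos libraries was left out or replicate 1 of Tspan8neg MHCIIhi, Ucma also without its replicate 2. Chosen after their values were seen, Irf4, a transcription factor of activated cells (61.6 and 55.3 against 207 to 1131), Ccr7 (46.8 and 52.9 against 198 to 708) and the cyclin Ccnd2 (143 and 161 against 466 to 2335) were also called, Irf4 not without replicate 2 of Tspan8pos MHCIIlo.

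The cell cycle genes were low without a call. Of 26 tested, 16 lay below all 6 other libraries, 25 were lower than in Tspan8neg MHCIIlo and 24 lower than in Tspan8neg MHCIIhi, but 0 were lower than in Tspan8pos MHCIIhi by edgeR (5 at an unadjusted p under 0.05, 0 by DESeq2). The medians were -0.43, -2.9 and -2.85. Mki67, a marker of dividing cells, had 126 and 203 normalized counts against 218 and 281 in Tspan8pos MHCIIhi, 982 and 1468 in Tspan8neg MHCIIlo and 1284 and 1122 in Tspan8neg MHCIIhi. The summed counts of the list were 1107 and 1439 in Tspan8pos MHCIIlo and 1513 and 1741 in Tspan8pos MHCIIhi, against 5593 to 8491 in the Tspan8neg libraries. Thymocyte markers were also lower than in Tspan8neg MHCIIlo (6 of 13), while against Tspan8neg MHCIIhi 0 were lower and 1 was higher. The part of thymocytes in the cell cycle differences was not tested. The 17 muscle genes had 8 below all 6 and 2, 11 and 10 lower, with medians of -0.88, -2.72 and -2.7 and 0 called (edgeR, 7 at an unadjusted p under 0.05, 0 by DESeq2). The 21 neuroendocrine genes had 11 below all 6, 7, 7 and 10 lower, and medians of -0.77, -1.42 and -1.34. Without replicate 2 of Tspan8pos MHCIIlo the first of these counts was 3, and without replicate 1, or replicate 2 of Tspan8pos MHCIIhi, it was 4.

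Some lists set Tspan8pos MHCIIlo between the other subsets. Of 28 enterohepatic genes, which intestine and liver use, 14 were lower than in Tspan8pos MHCIIhi and 8 were higher than in Tspan8neg MHCIIlo. Over all tested genes these shares were 4.59% and 12.1%. Against Tspan8neg MHCIIhi 14 were lower and 4 higher, beside 14.6% and 14.7% of all tested genes, so the 4 are within that share. Over all 3 subsets 0 were called (edgeR, 1 lower at an unadjusted p under 0.05, 0 by DESeq2). The summed normalized counts were 12570 and 13680, against 40320 and 47650 in Tspan8pos MHCIIhi. They were 1475 and 2480 in Tspan8neg MHCIIlo and 7250 and 8994 in Tspan8neg MHCIIhi. The sum thus lay above that of Tspan8neg MHCIIhi although more genes were lower. Most of the Tspan8pos MHCIIlo sum came from the single gene Reg3g, without which it would lie below that of Tspan8neg MHCIIhi. Reg3g, an antibacterial lectin, had 9051 and 10040 normalized counts against 21790 and 25850 in Tspan8pos MHCIIhi, 449.6 and 829.5 in Tspan8neg MHCIIlo and 1137 and 1680 in Tspan8neg MHCIIhi, and Saa3, an acute phase protein, had 621 and 698 against 5928 and 7518 in Tspan8pos MHCIIhi. Without replicate 2 of Tspan8pos MHCIIlo 8 were lower than in Tspan8pos MHCIIhi. Of 26 goblet and secretory genes, 7 were lower and 1 higher than in Tspan8pos MHCIIhi, while 23 and 19 were higher than in the Tspan8neg subsets and 1 was lower than in Tspan8neg MHCIIhi, with medians of -0.69, 4.14 and 2.52 and 0 called (edgeR, 3 higher at an unadjusted p under 0.05, 1 by DESeq2). The 7 became 3 without replicate 2 of Tspan8pos MHCIIlo and 4 without its replicate 1 or either Tspan8pos MHCIIhi library. Fcgbp, which binds mucus, had 18600 and 19670 against 39270 and 39190, while the mucin Muc5b had 2706 and 3362 against 1436 and 1468 and an edgeR adjusted p of 0.0135. Of 19 immature and junctional mTEC genes, 4, 3 and 12 were higher and 1, 11 and 2 lower. Ccl21a had 2817 and 1733 against 19070 and 12500 in Tspan8neg MHCIIlo and 1065 and 1017 in Tspan8neg MHCIIhi, and its near-identical copies make the count uncertain.

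The remaining lists had few calls. Microfold genes (15 tested) had 0, 10 and 8 higher and 2, 0 and 4 lower, with 0 called over all 3 (edgeR, 4 higher and 1 lower at an unadjusted p under 0.05, 0 by DESeq2). Ciliated genes (20) had medians of 0.43, -0.59 and -0.02, and ionocyte genes (12) medians of 0.09, 2.76 and -0.3, with 0 of the latter called (edgeR, 2 higher at an unadjusted p under 0.05, 1 by DESeq2). Genes of the interleukin 1 family (16) had 0, 8 and 6 higher and 0, 1 and 2 lower, and of the Ly6 superfamily (17) 1, 11 and 14 higher and 1, 1 and 1 lower, with 0 called in both (edgeR, 1 and 3 higher at an unadjusted p under 0.05, 0 and 1 by DESeq2). Immediate early genes (19), which respond fast to stimulation, had 7 above all 6 other libraries and medians of 0.4, -0.18 and 1.03, and 0 were called (edgeR, 5 higher at an unadjusted p under 0.05, 0 by DESeq2). Mitochondrially encoded genes (13) had medians of 0.02, -1.04 and 0.35 and 0 called (edgeR, 0 at an unadjusted p under 0.05, 0 by DESeq2). Fibroblast and vessel markers (14) had 4, 1 and 3 higher and 1, 4 and 3 lower. Over all 3 subsets Tek was called higher and Rgs5 lower. cTEC markers (12) had 0, 1 and 2 higher and 3, 5 and 6 lower, with Tbata called lower over all 3. B and plasma cell markers (10), myeloid markers (14) and erythroid markers (6) had 0 called (edgeR, 1 higher, 2 lower and 1 lower at an unadjusted p under 0.05, 0 by DESeq2).

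Over the 183 genes called higher, the subset nearest in log2 fold change was Tspan8pos MHCIIhi for 103, Tspan8neg MHCIIlo for 73 and Tspan8neg MHCIIhi for 7. In 79 of them the other means fell in the order Tspan8pos MHCIIhi, Tspan8neg MHCIIlo, Tspan8neg MHCIIhi, and in 68 the order was Tspan8neg MHCIIlo, Tspan8pos MHCIIhi, Tspan8neg MHCIIhi. Over the 93 called lower, Tspan8neg MHCIIhi was the highest subset with Tspan8neg MHCIIlo next in 47 genes and with Tspan8pos MHCIIhi next in 39. The smallest of the 3 log2 fold changes had a median of 1.6 among genes called higher and -1.81 among genes called lower, and reached 2 in size in 56 and 34. Among the called genes, 62 of the 183 higher and 17 of the 93 lower were called whichever of the 8 libraries was left out. Called genes overlapped a gene on the opposite strand in 81 and 37 cases. In 6 genes called lower both Tspan8pos MHCIIlo libraries were at or under the floor, so their size is not resolved.

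Most of the genes that met only the non-overlap rule were close to it. Of the 2071 tested genes above all 6 libraries 1888 were not called, and of the 1941 below 1848 were not. The gap between the nearest libraries of the 2 sides had a median of 1.19-fold above and 1.25-fold below, and 242 and 362 genes had a gap of at least 2-fold. The 362 include 78 genes at 0 counts in both Tspan8pos MHCIIlo libraries, for which the gap has no limit and of which 2 were called. Svil, just inside the rule, had 909.4 normalized counts in the lower Tspan8pos MHCIIlo library against 909.3 in the highest other, and Mrpl10, just outside, had 181.6 in both. On the lower side Ccp110 was just inside, at 167.8 in both nearest libraries, and Cct8 just outside, at 450.5 against 450.4.

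**Figure D5:**
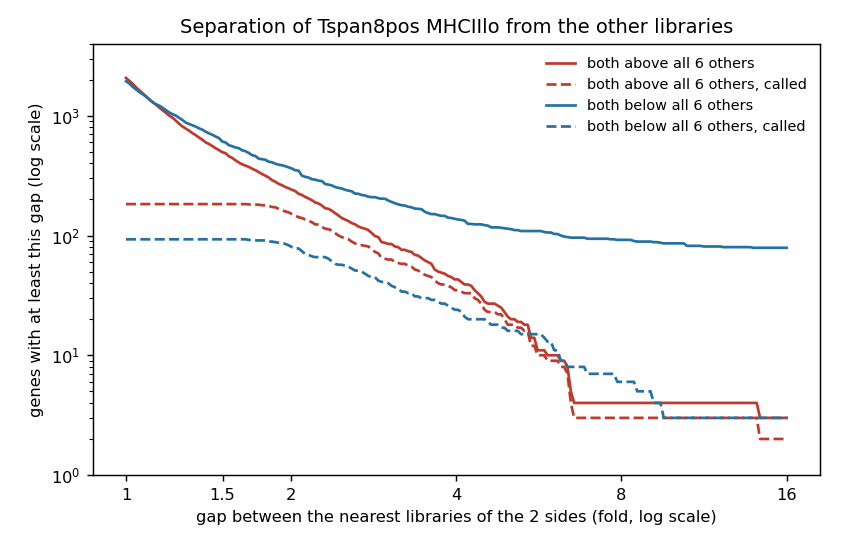
Number of tested genes (log axis) whose 2 Tspan8pos MHCIIlo libraries lie above or below all 6 others by at least the fold gap on the horizontal axis, with the called genes as dashed lines. At a gap of 2-fold 242 genes remain above and 362 below, and the line for genes below ends in the 78 genes at 0 counts in both Tspan8pos MHCIIlo libraries, for which the gap has no limit.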

How the data were processed

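For the 8 RNA-seq libraries of sorted mouse mTECs the authors deposited estimated counts, 1 column a library, as whole numbers that are not normalized. The methods name FastQC and assignment of single-end reads to Gencode transcripts with Salmon, and the submitters' processing notes give Salmon 1.8.0, DESeq2 1.30.0 and the build mm10. The step that rounded the estimates is not given in the sources used here, and rounding changed no value. The labels name a stranded mRNA kit and the methods pre-amplified, transposase-fragmented cDNA, so counts of genes with an opposite-strand overlap are uncertain, as are those of overlapping or near-identical genes. All 8 columns were mapped to a library by its description, and 0 columns were left unused.

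Symbols and coordinates come from a GENCODE release on GRCm38 that is later than the release the authors used and matched 25336 (99.49%) of 25466 identifiers. Promoters are RefSeq sequences on GRCm38.p6.

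Counts were tested by the quasi-likelihood method of edgeR 4.0.16 under R 4.3.3 (limma 3.58.1), after filterByExpr and TMM. A single model held the 4 subset means and shared the spread over the 8 libraries (common dispersion 0.024, biological coefficient of variation 15.5%). Per gene the largest of the 3 two-sided p-values was taken where all 3 signs were the same, adjusted over 17006 genes by Benjamini-Hochberg, and called at 0.01 with a smallest absolute log2 fold change of at least 1. Each SE is the size of the log2 fold change over the square root of its F statistic. Counts against single subsets used the same thresholds per comparison. An exact permutation test of 2 against 2 libraries cannot reach 0.05 and none is given. The floor is 3 counts per library, and floors cover counting error only, since PCR-amplified reads are not independent molecules. The scripts were tested on simulated data.

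The members and the 32 gene lists were chosen with earlier results of these data known. Named genes are the markers Ehf, Ivl, Dclk1, Tspan8, H2-Ab1, Aire, Cd80, Krt10 and Epcam, in each direction the 12 called protein-coding genes with the largest smallest-of-3 change and a mean of at least 10 CPM on the higher side and the 8 with the highest level, and in each list the 4 called members with the largest change or, with none called, the most abundant member. Some genes that met these rules are not reported here. Other genes named in the text were chosen after their values were seen. Same-numbered replicates deviated together with correlations of 0.00402 to 0.0924, none over 0.1, and the numbers were not taken as pairs. Counting error in single genes lowers such correlations, so they cannot exclude pairs. The thymocyte, B and plasma cell and myeloid marker sums were higher in replicate 2 than in replicate 1 of every subset. The erythroid sum was so in every subset but Tspan8pos MHCIIlo. The alternatives were DESeq2 1.42.0, its size factors, other filters and thresholds, the mean of the 3 subsets as comparison, a replicate block, thinning to equal depth and leaving out each library. ATAC-seq and ChIP-seq were not analysed here.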

Additional observations from a re-analysis of the deposited data

How the results depend on the processing

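The gene counts, some list counts and the smallest log2 fold change of 53 named called genes were recomputed, and none of these log2 fold changes changed sign. List medians and genes not called were not recomputed. Among the 183 higher and 93 lower calls, 182 and 93 were also called with the replicate block, which called 227 and 120 in all, and 177 and 92 with DESeq2, which called 199 and 117. Since the numbers were not taken as pairs, the block is given here only. Without the filter on low counts 145 genes were called lower, and 179 at an adjusted p of 0.05. Against the mean of the 3 other subsets, a wider question, 1595 were higher and 1201 lower, with 11 taste genes and 18 mature mTEC genes. A gap of at least 1.5-fold left 493 genes above and 608 below all 6 libraries. With 1 library left out, the calls numbered 71 to 238 higher and 19 to 150 lower, the genes above 2118 to 3045 and those below 1971 to 3503. Calls were fewest without replicate 2 of Tspan8pos MHCIIlo (71 and 19), then replicate 1 (84 and 38), replicate 1 (91 and 47) and replicate 2 (108 and 44) of Tspan8pos MHCIIhi, and more were made without replicate 1 (216 and 150) or replicate 2 (238 and 146) of Tspan8neg MHCIIlo. The cause was not tested. List calls ranged over 2 to 7 taste, 19 to 33 Tuft identity, 7 to 10 MHC class II and 3 to 10 mature mTEC genes, and against Tspan8pos MHCIIhi over 8 to 17 enterohepatic, 3 to 8 goblet and 3 to 7 neuroendocrine genes. Of the named genes, 4 lost their call under another setting, and 30 of 53 without some library. A library left alone in its subset was assumed to vary like the others. The comparison of promoter motif shares was not run, because too few genes had a promoter. The smallest library, replicate 1 of Tspan8pos MHCIIlo, limits what can be resolved below 1.55 CPM.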
